A study of Homo sapiens with 12 samples.

Results

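miR-143 and miR-145 are made from a pair of neighbouring hairpins, and each hairpin yields a 5p and a 3p strand that can be measured apart. On a miScript miRNA PCR Array of OCI-My5 multiple myeloma (MM) cells, 4 of the 372 miRNA assays belong to these hairpins: hsa-miR-143-3p, hsa-miR-143-5p, hsa-miR-145-5p and hsa-miR-145-3p. They were chosen by name, and the cluster was picked because miR-143-3p and miR-145-3p had been seen at high levels in My5/CRBN cells with lenalidomide, so those values are given as a description. All 4 assays gave a threshold cycle (Ct) on every array, and 3 of them were under Ct 35 on all 12 arrays, whereas miR-145-3p was under Ct 35 on 8.

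My5/LV cells are OCI-My5 cells with the lentiviral vector alone, with a low level of cereblon (CRBN) and resistance to lenalidomide. My5/CRBN cells are OCI-My5 cells with a His-tagged CRBN cDNA under a CMV promoter, with a high level of CRBN and sensitivity to the drug. Each line was a pool sorted for GFP. Both were measured without treatment (control), with an shRNA against EIF2C2 (sh72), with EIF2C2 cDNA, with 10 μM lenalidomide for 72 hours (Len72) or 120 hours (Len120), and with EIF2C2 cDNA together with 72 hours of lenalidomide (EIF2C2+Len72). EIF2C2 is the gene of argonaute 2 (AGO2), and RNA was taken 3 days after the shRNA or the cDNA. The control arrays are labelled as cells with no overexpression, knockdown or treatment, and no array used here is labelled for an empty shRNA or cDNA vector. The paper's methods describe a further lentiviral infection and puromycin selection for cells with the shRNA or the cDNA. Their effects cannot be told apart from those of EIF2C2. The array measures miRNAs only, so the levels of EIF2C2 and CRBN mRNA were not checked here. The question addressed was how CRBN, EIF2C2 and lenalidomide change the steady-state levels of miRNAs, and for the cluster whether its strands moved together.

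After a miRNA hairpin is cut by Drosha and Dicer, one strand of the duplex is usually kept by an argonaute protein such as AGO2, and bases near its 5′ end, the seed, pair with target mRNAs. miR-143 and miR-145 are carried by the long non-coding RNA CARMN, are abundant in smooth muscle and other mesenchymal cells, where serum response factor and myocardin drive them, and are often low in tumours, B-cell malignancies included. miR-143-3p and miR-145-5p are the strands usually described as the main products, and miR-143-5p and miR-145-3p as their partners.

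The mature sequences are shown because each assay reads 1 strand and the strands behaved differently. RefSeq gives them as follows, 5′ to 3′, with bases 2 to 8 (the seed) in capitals:
hsa-miR-143-3p: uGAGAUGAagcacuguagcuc
hsa-miR-143-5p: gGUGCAGUgcugcaucucuggu
hsa-miR-145-5p: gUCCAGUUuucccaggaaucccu
hsa-miR-145-3p: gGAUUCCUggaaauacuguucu

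In the GRCh38.p14 assembly these lie on the plus strand at chr5:149428978-149428998, chr5:149428944-149428965, chr5:149430661-149430683 and chr5:149430699-149430720, in that order. The 4 seeds differ from each other, and none is shared with another miRNA on the array. Among all RefSeq miRNAs the seed of miR-143-3p is shared with miR-4770 and miR-6088, which the array does not hold. The hairpins are shown with both mature strands in capitals, since each gives the pair of strands compared below:
MIR143: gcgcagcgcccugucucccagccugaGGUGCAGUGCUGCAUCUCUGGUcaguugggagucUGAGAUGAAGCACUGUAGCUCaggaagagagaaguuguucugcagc
MIR145: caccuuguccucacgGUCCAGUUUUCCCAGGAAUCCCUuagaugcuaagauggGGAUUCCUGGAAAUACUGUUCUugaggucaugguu

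MIR143 spans chr5:149428918-149429023 and MIR145 spans chr5:149430646-149430733, with 1622 bases between them. Both lie within CARMN, annotated as a long non-coding RNA at chr5:149406845-149432836.

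A well with more of a miRNA crosses the detection threshold at an earlier cycle, so a low Ct stands for a high level, and 1 cycle stands for a change of 1 on the log2 scale. Readings above Ct 35 were taken as 35, and subtracting the mean of 6 small-RNA control wells gave the normalized Ct. With 1 array per condition no difference has a replicate check and no test was made. Every value is only as precise as a single well on a single array. Whether a level differs because fewer cells held the miRNA or because each cell held less cannot be told apart. As a measure of spread, wells of the same assay on the same array differed by 0.187 cycles (root mean square over 12 arrays) for the reverse transcription control, by 0.383 cycles for the PCR positive control and by 1.43 cycles for cel-miR-39-3p, an assay read between Ct 31.5 and the cap. On 4 arrays the cel-miR-39-3p wells were 3 fold apart or more. Of the miRNAs, 324 to 367 per array were under Ct 35, and the control wells had a mean Ct from 18.7 to 21.9.

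miR-143-3p, the main strand of its hairpin, varied more than nearly all other miRNAs. In My5/LV cells its normalized Ct was 9.41 in control, 10.74 in sh72, 8.76 with EIF2C2 cDNA, 8.80 in Len72, 7.16 in Len120 and 7.52 in EIF2C2+Len72. In My5/CRBN cells it was 6.81, 7.88, 6.68, 5.45, 4.64 and 4.50 in the same order. The highest levels of each line were in its Len120 and EIF2C2+Len72 arrays and the lowest in its sh72 array, and the lines overlapped only because My5/LV cells with Len120 or EIF2C2+Len72 stood above My5/CRBN cells with sh72. As read, the Ct ran from 23.3 in My5/CRBN Len120 to 31.7 in My5/LV sh72. Its normalized Ct spanned 6.23 cycles, the fifth largest span of the 372 assays, against a median span of 2.55. By normalized Ct it was 239 of 372 from the highest level in untreated My5/LV cells and 97 of 372 in My5/CRBN cells with EIF2C2+Len72, a rank that also carries the efficiency of each assay.

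miR-143-5p, the partner strand, showed no such pattern. Its normalized Ct in My5/LV cells was 10.26 in control, 10.77 in sh72, 9.99 with EIF2C2 cDNA, 10.15 in Len72, 11.36 in Len120 and 9.72 in EIF2C2+Len72. The My5/CRBN values were 10.72, 10.33, 11.60, 9.30, 11.56 and 10.78. The lines overlapped throughout, and in My5/LV cells the lowest level was in Len120, the array with the highest level of miR-143-3p in that line. Its span of 2.30 cycles was below the median span of all assays.

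miR-145-5p, the main strand of its hairpin, spanned 1.41 cycles in My5/LV cells. Its normalized Ct there was 8.40 in control, 8.36 in sh72, 8.10 with EIF2C2 cDNA, 8.57 in Len72, 9.51 in Len120 and 8.53 in EIF2C2+Len72. The corresponding My5/CRBN values were 8.44, 8.19, 7.13, 7.45, 8.97 and 6.96. Its highest levels were on both My5/CRBN arrays with EIF2C2 cDNA, and its lowest level in each line was in Len120. Its span over all 12 arrays was 2.55 cycles.

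miR-145-3p was near the limit of detection. In My5/LV cells it was read at Ct 34.7 in control, 34.6 in sh72, 42.3 with EIF2C2 cDNA, 41.0 in Len72, 32.5 in Len120 and 32.8 in EIF2C2+Len72. On the My5/CRBN arrays the Ct was 34.1, 36.4, 36.6, 30.1, 29.4 and 31.4. All 3 My5/CRBN arrays with lenalidomide lay below every other array in Ct, and the 4 arrays above 35 give a bound only. Most of its readings lay where the cel-miR-39-3p wells differed by 1.43 cycles. The normalized Ct spanned 3.89 cycles, rank 46 of 372.

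**Figure D1:**
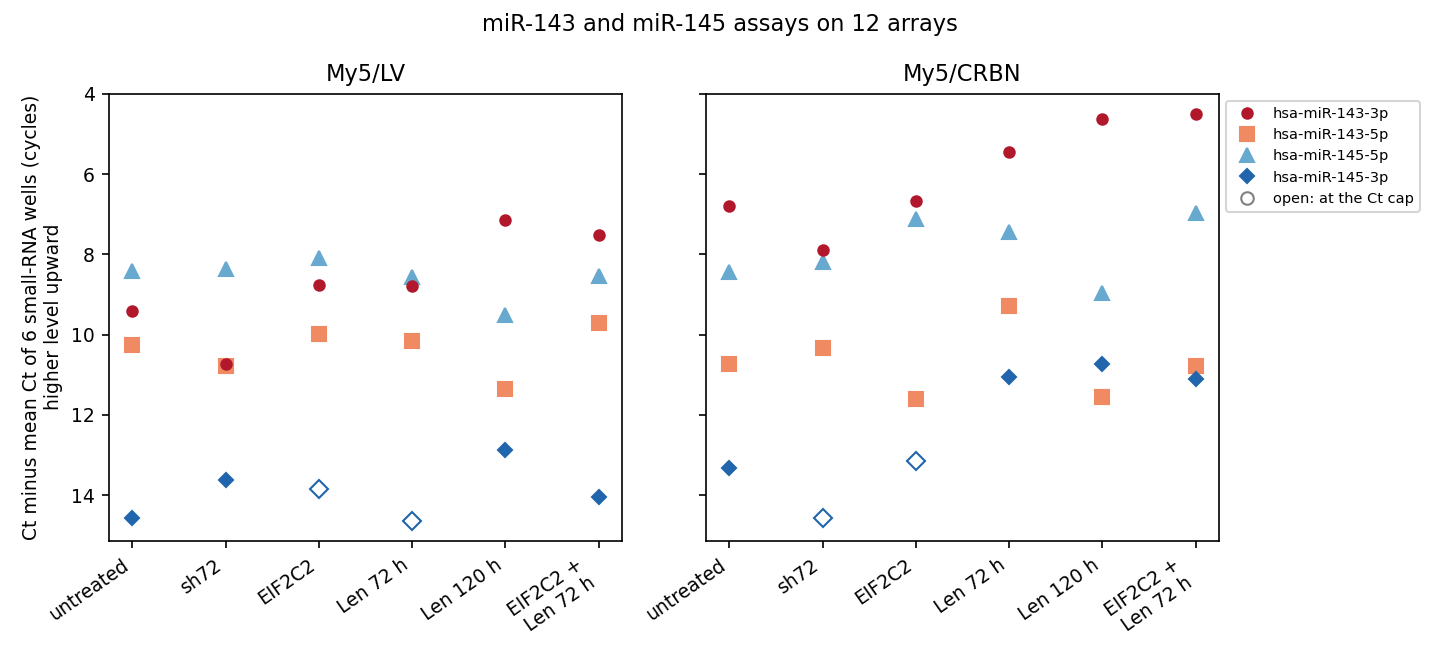
Normalized Ct (cycles, axis inverted so that a higher level is upward) of the 4 assays in My5/LV (left) and My5/CRBN (right), 1 point per array, with no error bars since each condition has 1 array; open symbols are wells above Ct 35, set to 35. miR-143-3p runs from 10.74 to 4.50, while miR-143-5p stays between 9.30 and 11.60.

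The cell lines were compared within each treatment, which gives 6 comparisons that share no array. The log2 fold change of miR-143-3p, My5/CRBN over My5/LV, was 2.60 in control, 2.85 in sh72, 2.08 with EIF2C2 cDNA, 3.35 in Len72, 2.52 in Len120 and 3.02 in EIF2C2+Len72. On a linear scale the differences ran from 4.24 fold to 10.2 fold. The smallest of them, 2.08, lay below the largest difference between cel-miR-39-3p wells of 1 array, 2.38 cycles, and how far such values vary between arrays of 1 condition was not measured. Of the 372 assays, 5.91% were higher in My5/CRBN cells with all 6 treatments, and miR-143-3p was the only one that was at least 3 fold higher with all 6 (0.269% of assays). The cluster had been picked for high levels on the My5/CRBN arrays of 3 of these 6 pairs, those with lenalidomide. In the 3 pairs without the drug miR-143-3p ranked 3 in control, 1 in sh72 and 2 with EIF2C2 cDNA among 372 log2 fold changes, where 2.15%, 3.23% and 1.61% of assays were at least 3 fold higher.

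The other strands did not follow it. miR-143-5p had log2 fold changes between the lines of -0.46 in control, 0.44 in sh72, -1.61 with EIF2C2 cDNA, 0.86 in Len72, -0.20 in Len120 and -1.05 in EIF2C2+Len72. With EIF2C2 cDNA it was thus 3.04 fold lower in the CRBN line, past the threshold as were 9.14% of assays in that direction. Its log2 fold change of -1.61 became -1.10 with the global mean, -1.45 with RNU6 and -1.30 with the reverse transcription control wells as normalizer, all short of 3 fold. miR-145-5p had -0.04, 0.17, 0.97, 1.12, 0.53 and 1.57, with none past 3 fold and the last just under it at 2.98 fold (past it with RNU6 alone, at 1.80).

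For miR-145-3p the log2 fold change between untreated lines was 1.23. It was at least 3.56 in Len72, where the My5/LV well was above Ct 35, and it was 2.13 in Len120 and 2.92 in EIF2C2+Len72. In sh72 the My5/CRBN well was above Ct 35, so the value was at most -0.93, and with EIF2C2 cDNA both wells were above 35 and gave no value. miR-145-3p thus passed 3 fold in the 3 pairs with lenalidomide, while of the pairs without the drug only the control pair gave a measured value. With a cap of 40 in place of 35, it was past 3 fold lower in sh72 (-2.29) and past 3 fold higher with EIF2C2 cDNA. Together with miR-143-3p it makes up 2 of 4 assays in each of these pairs, where 9.41%, 6.45% and 6.99% of all assays passed in Len72, Len120 and EIF2C2+Len72. Of the 24 values of the 4 assays, counting the miR-145-3p pair that gave no value, 10 were past 3 fold, 9 of them in the higher direction. Among the values of all assays in the same pairs, 4.97% passed upward and 3.45% downward. The 9 include both 3p strands in the 3 pairs with lenalidomide, whose My5/CRBN arrays the cluster was picked on.

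**Figure D2:**
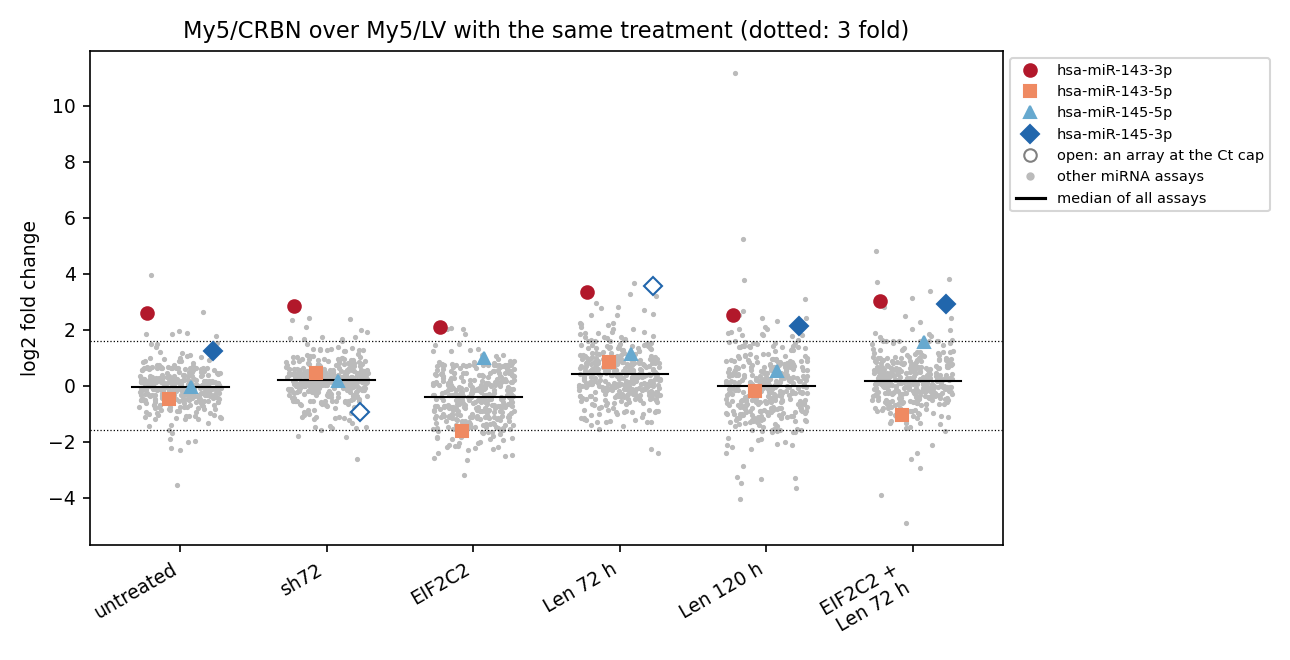
Log2 fold change of My5/CRBN over My5/LV (y axis) within each of the 6 treatments (x axis), 1 grey point per miRNA assay, coloured symbols for the 4 assays of the cluster, a black line at the median of all 372 and dotted lines at 3 fold. miR-143-3p lies between 2.08 and 3.35 in all 6, above the upper dotted line; open symbols have a well at the Ct cap.

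Lenalidomide was compared with the control array of the same line, so that Len72 and Len120 of a line share 1 control array. No array is labelled for dimethyl sulfoxide, the control in the paper's protein and survival assays of the drug. No untreated array is labelled with a matching time either. Lenalidomide, its vehicle and time in culture therefore cannot be told apart here. In My5/LV cells Len72 changed little: the log2 fold changes were 0.61 for miR-143-3p, 0.11 for miR-143-5p and -0.17 for miR-145-5p, and at most -0.07 for miR-145-3p. After Len120 miR-143-3p was higher by 2.25 (4.76 fold) and miR-145-3p by 1.70 (3.25 fold), whereas miR-143-5p stood at -1.09 and miR-145-5p at -1.10. Both 3p strands were therefore at least 3 fold higher in the resistant line, where 4.3% of assays were. Both 5p strands were lower than in control, while only 47.6% of all assays were higher than in control. miR-143-5p and miR-145-5p ranked 92 and 91 from the bottom among 372 log2 fold changes. The directions of the strands were the same with each of the 5 normalizers. The cluster was picked for its levels on My5/CRBN arrays, and against which arrays those were judged high is not recorded. The log2 fold changes of the 6 control wells had an SD of 0.18 for Len72 and 0.41 for Len120.

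In My5/CRBN cells Len72 gave log2 fold changes of 1.36 for miR-143-3p, 1.43 for miR-143-5p, 0.99 for miR-145-5p and 2.27 for miR-145-3p, against a median of 0.30 over all assays. All 4 strands were above the median on this array, and miR-145-3p was past 3 fold, as were 9.95% of assays. After Len120 the values were 2.16 for miR-143-3p, -0.84 for miR-143-5p, -0.53 for miR-145-5p and 2.59 for miR-145-3p, with a median of -0.15. Both 3p strands were past 3 fold, where 5.11% of assays were at least 3 fold higher. These arrays were among those used to pick the cluster. Over both lines and times, 5 of 16 values were past 3 fold, each in the higher direction. Among the values of all assays in the same comparisons, 4.97% passed upward and 7.46% downward. The 5 mix values from the My5/CRBN arrays used in the pick with those of My5/LV Len120.

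Len120 was also set against Len72 directly. In My5/LV cells miR-143-3p was 3.12 fold higher and miR-145-3p at least 3.40 fold higher at the later time (log2 fold changes of 1.64 and at least 1.77), where 4.3% of assays were at least 3 fold higher. miR-143-5p and miR-145-5p had log2 fold changes of -1.20 and -0.93. In the CRBN line the 3p strands had 0.81 and 0.33 and the 5p strands -2.26 and -1.52. Of these, miR-143-5p was past 3 fold, 4.80 fold lower, together with 22% of all assays.

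With EIF2C2 cDNA in the cells, 72 hours of lenalidomide against cDNA alone gave log2 fold changes of 1.24 for miR-143-3p, 0.27 for miR-143-5p and -0.44 for miR-145-5p in My5/LV cells, and at least -0.18 for miR-145-3p. In My5/CRBN cells the values were 2.17, 0.82 and 0.17, and at least 2.02 for miR-145-3p. Both 3p strands were thus past 3 fold, where 8.33% of assays were. The My5/CRBN array with lenalidomide used here was among those the cluster was picked on. miR-143-3p in My5/LV cells also passed with the global mean (1.64) and the reverse transcription control wells (1.70), and miR-145-3p in My5/CRBN cells was just short of it with RNU6 alone, at a bound of 1.57. Against Len72 without the cDNA, no value passed 3 fold. There, miR-143-3p had 1.27 in the LV line and 0.95 in the CRBN line, and miR-143-5p had 0.43 and -1.48, the latter -2.19 and past 3 fold with RNU6 alone.

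When the 3 arrays with lenalidomide were set against the 3 without it in each line, whatever the EIF2C2 treatment, miR-143-3p and miR-145-3p were higher on every lenalidomide array in My5/CRBN cells, as were 11.3% of assays. In My5/LV cells the ranges of miR-143-3p overlapped, by Len72 at 8.80 against EIF2C2 cDNA at 8.76. miR-145-5p was lower on every lenalidomide array of My5/LV cells (8.53 to 9.51 against 8.10 to 8.40), as were 10.2% of assays. The members' shares here cannot be read beyond these background shares.

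**Figure D3:**
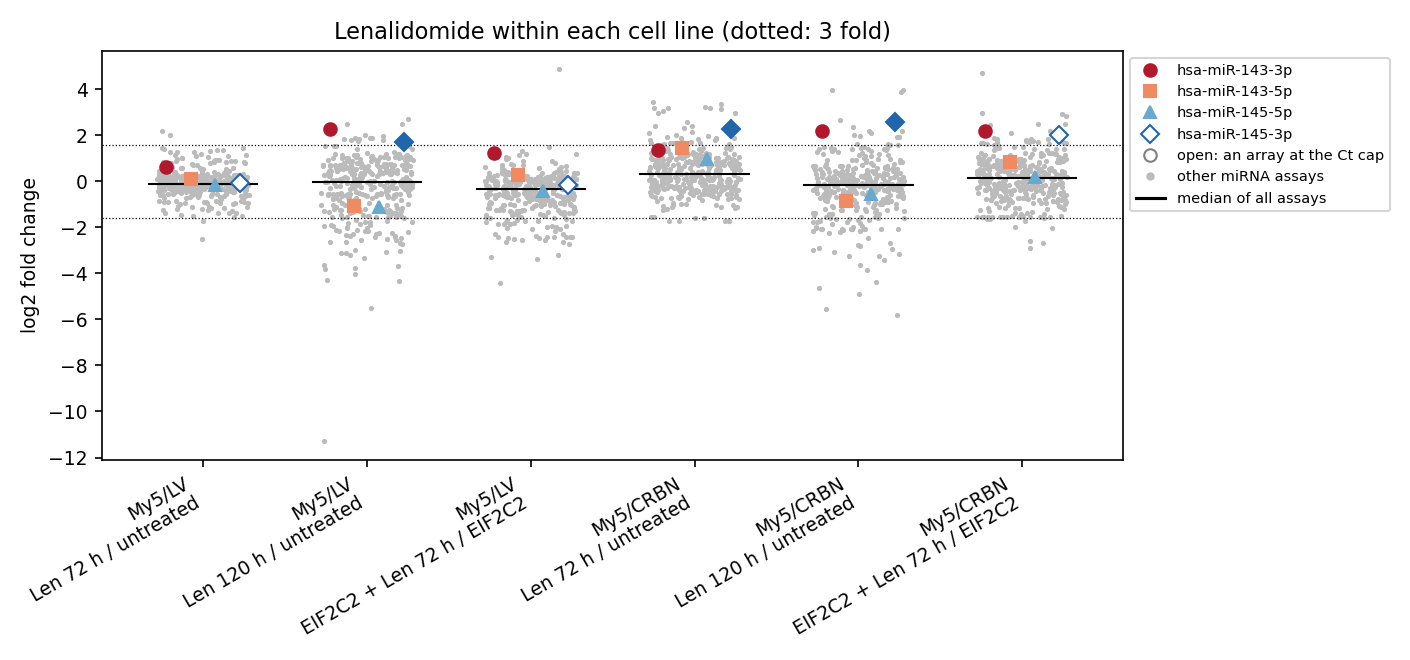
Log2 fold change with lenalidomide within each cell line (y axis) for 6 comparisons (x axis), 1 grey point per miRNA assay, coloured symbols for the cluster, a black line at the median of all 372 and dotted lines at 3 fold. In both Len120 comparisons miR-143-3p and miR-145-3p lie above the upper dotted line (1.70 to 2.59) and both 5p strands lie below 0. Of all assays, 47.6% lie above 0 in My5/LV Len120 and 41.7% in My5/CRBN Len120. Open symbols have a well at the Ct cap.

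Of the 16 values with silencing or overexpression of EIF2C2 against control, none passed 3 fold, though 3 of them are only upper bounds. Of all assays, 1.75% were past 3 fold higher and 18.3% past 3 fold lower with sh72, and 4.03% and 3.49% with the cDNA. With sh72, miR-143-3p had log2 fold changes of -1.33 in the LV line and -1.08 in the CRBN line, and miR-143-5p had -0.51 and 0.40. The normalizer moved these values most: in the LV line miR-143-3p was at -2.31, past 3 fold, with RNU6 alone and at -0.46 with the global mean of the miRNAs. miR-145-5p had 0.05 and 0.25, while the median over all assays was -0.79 and -0.52. miR-145-3p was 0.94 in the LV line (-0.04 with RNU6 alone) and at most -1.22 in the CRBN line. With EIF2C2 cDNA the values in My5/LV and My5/CRBN cells were 0.65 and 0.13 for miR-143-3p, 0.27 and -0.87 for miR-143-5p, and 0.31 and 1.32 for miR-145-5p. miR-145-3p was above Ct 35 on both cDNA arrays and had only upper bounds, of 0.71 and 0.20. Between cDNA and sh72, miR-143-3p was 3.94 fold higher with cDNA in My5/LV cells (log2 fold change 1.98), where 22.3% of assays were at least 3 fold higher, and 2.31 fold higher in My5/CRBN cells (1.21). With the global mean the My5/LV value was 0.93, short of 3 fold.

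The strands of 1 hairpin were also compared on the same array, which needs no normalizer. The Ct of miR-143-3p minus that of miR-143-5p was -0.86 in My5/LV control, -0.03 in sh72, -1.23 with EIF2C2 cDNA, -1.36 in Len72, -4.20 in Len120 and -2.20 in EIF2C2+Len72. Across the My5/CRBN arrays it was -3.92, -2.44, -4.92, -3.85, -6.92 and -6.27. The 3p strand crossed first on all 12 arrays, by the most in Len120 of each line and, with each treatment, by more in the CRBN line than in the LV line. Across the 86 hairpins with both strands on the array, this difference spanned a median of 2.83 cycles over the 12 arrays, and that of miR-143 spanned 6.89, the fourth largest.

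For miR-145 the 5p strand crossed first on all 12 arrays. The Ct of miR-145-3p minus that of miR-145-5p, with the 3p well set to 35 where it was above, was 6.16 in My5/LV control, 5.27 in sh72, 5.76 with EIF2C2 cDNA, 6.06 in Len72, 3.36 in Len120 and 5.50 in EIF2C2+Len72. For My5/CRBN the differences were 4.89, 6.37, 6.01, 3.61, 1.76 and 4.15. The smallest difference of each line was in Len120, and the mean over the 12 conditions was 4.91 ± 1.41 (SD over conditions, which are not replicates). The span was 4.60 cycles, rank 15 of 86.

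From control to Len120 the ratio of 3p to 5p thus shifted toward the 3p strand for both hairpins in both lines. The log2 shift was 3.35 for miR-143 and 2.80 for miR-145 in My5/LV cells, and 3.00 and 3.13 in My5/CRBN cells. Of the 86 hairpins, 14% in the LV line and 11.6% in the CRBN line shifted at least 3 fold toward the 3p strand, with a median shift of 0.05 and -0.02. The 2 hairpins ranked 1 and 3 in the LV line, and 3 and 2 in the CRBN line. The My5/CRBN Len120 array was among those the cluster was picked on for high 3p levels. The shift in the CRBN line thus follows partly from the pick. At Len72 the shifts were smaller: miR-143 had 0.50 in the LV line and -0.07 in the CRBN line, and miR-145 had 1.28 in My5/CRBN cells. Between the lines, miR-143 was shifted toward 3p in My5/CRBN cells by 3.06 in control, 2.41 in sh72, 3.69 with EIF2C2 cDNA, 2.49 in Len72, 2.72 in Len120 and 4.08 in EIF2C2+Len72. It ranked 1 of 86 in all of these but Len120, where it ranked 6. The pairs with lenalidomide hold My5/CRBN arrays that the cluster was picked on.

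**Figure D4:**
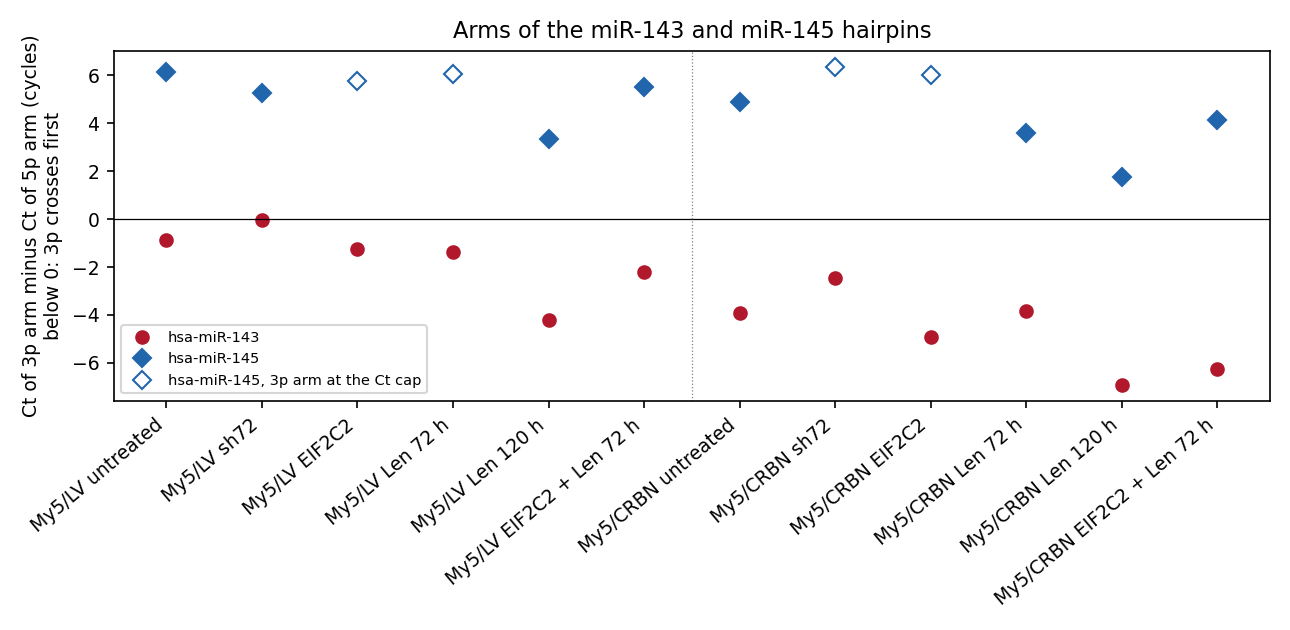
Ct of the 3p strand minus Ct of the 5p strand (cycles, y axis) on each of the 12 arrays (x axis) for the miR-143 and miR-145 hairpins, 1 point per array; below 0 the 3p strand crossed first. The lowest point of each hairpin is My5/CRBN Len120 (-6.92 and 1.76), and open symbols have the 3p well at the Ct cap.

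Over the 12 arrays the cluster did not move as a unit. Pearson's r of normalized Ct was 0.84 between miR-143-3p and miR-145-3p (Spearman's rho 0.83, n = 12 arrays), which come from different hairpins. It was -0.23 between the strands of miR-143 and 0.26 between those of miR-145. It was 0.30 between the main strands, miR-143-3p and miR-145-5p, 0.18 between the 5p strands, and -0.25 between miR-143-5p and miR-145-3p. The median of these 6 values was 0.22, against 0.18 over 49141 pairs among 314 assays that stayed under Ct 35 throughout. For 135 other pairs of miRNAs from different hairpins within 10 kilobases on 1 strand, the median r was 0.40 (from -0.69 to 0.97), and for the 4 such pairs of the cluster it was 0.24. The arrays share cell lines and the same normalizer, so these are descriptions. The r of 0.84 rests on where miR-145-3p is cut off: it was 0.85 over the 8 arrays under Ct 35, 0.65 with a cap of 40 and 0.21 with a cap of 32.

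The miRNAs most like each strand, by Pearson's r over the 12 arrays among 311 candidates under Ct 35 on every array, differed between strands. For miR-143-3p they were miR-223-3p (0.94), miR-455-5p (0.93) and miR-424-5p (0.90). For miR-145-3p they were miR-455-5p (0.94), miR-205-5p (0.85) and miR-223-3p (0.84). The 3p strands therefore shared miR-455-5p and miR-223-3p, but both strands had been picked for high levels on the same My5/CRBN arrays. For miR-143-5p they were miR-622 (0.88), miR-155-3p (0.82) and miR-187-5p (0.81), and for miR-145-5p they were miR-222-5p (0.78), miR-626 (0.76) and miR-323b-5p (0.72). miR-223-3p, best known from myeloid cells, was higher in My5/CRBN cells with all 6 treatments, with log2 fold changes from 1.30 to 2.79. miR-455-5p was also higher with all 6, from 0.55 to 3.80.

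The other miRNAs of the tissues and pathways that miR-143 and miR-145 are known from were read from lists. Of 12 measured miRNAs enriched in stromal and smooth muscle cells, all were under Ct 35 on every array, with median Ct values from 18.4 for miR-195-5p to 31.0 for miR-199a-5p. In the 4 lenalidomide comparisons 2 of their 48 values passed 3 fold in the higher direction and 0 in the lower, a share of 4.17% against 4.97% of all assays, and their median log2 fold change was 0.16 against -0.04. Between the lines 3 of 72 values were at least 3 fold higher, again 4.17% against 4.97%. With sh72, 8 of 24 were at least 3 fold lower (33.3% against 18.3% of all assays), among them both values of miR-99a-5p, miR-100-5p and miR-199b-5p, named after their values were seen.

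Of 7 striated muscle miRNAs, 7 of 42 values between the lines passed 3 fold with My5/CRBN higher (16.7% against 4.97% of all assays) while 2 passed in the other direction, and the median was 0.87 against 0.06. No single member passed in more than 2 treatments. Of 9 miRNAs linked to p53, 2 of 54 values between the lines passed 3 fold in the higher and 3 in the lower direction, and with lenalidomide 1 of 36 was higher and 1 lower. p53 is also known to help the processing of miR-143, miR-145 and 4 other measured miRNAs. Of those 4, none of 16 values passed 3 fold with lenalidomide, and 1 of 24 was higher between the lines. Among the values of all assays between the lines, 4.97% passed upward and 3.45% downward. With lenalidomide these shares were 4.97% and 7.46%.

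Markers of other cell types were read for the same arrays. The blood lineage markers miR-142-3p, miR-150-5p and miR-142-5p were abundant, with median Ct values of 16.6, 20.2 and 21.4. The others were read later: miR-223-3p at a median of 29.0, miR-451a at 29.5 and miR-155-5p, typical of activated B cells, at 32.6. Of the 6 blood lineage markers, 10 of 36 values between the lines (27.8%, against 4.97% of all assays) passed 3 fold with My5/CRBN higher, and these came from miR-223-3p (5), miR-155-5p (4) and miR-142-3p (1). Of 6 stromal markers 2 of 36 values, of 6 epithelial markers 3 of 36 and of 2 endothelial markers 0 of 12 were at least 3 fold higher, which is 5.56%, 8.33% and 0%. The 3 epithelial values were those of miR-205-5p, which ran from -0.91 to 5.22 between the lines. The median log2 fold change between the lines was -0.69 for the epithelial markers, against 0.06 over all assays. It was 0.42 for the blood lineage, 0.19 for the stromal and 0.66 for the endothelial markers. No marker value between the lines was at least 3 fold lower, as were 3.45% of all assays. Each stromal marker was detected on all 12 arrays, with Ct values from 21.0 to 34.4. Each endothelial marker (Ct 23.6 to 28.7) and each epithelial marker (Ct 23.5 to 33.7) was also detected on all 12 arrays. Detection was thus not particular to the stromal markers. The part of any other cell type in the level of miR-143-3p was not tested.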

How the data were processed

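The miScript II RT kit was used to make cDNA from total RNA, which was read by SYBR Green PCR on miScript miRNA PCR Arrays, with 12 arrays for 12 conditions. The table deposited by the authors holds the Ct of each well with no other normalization. The deposited table of fold changes holds the authors' own comparisons and was not used. Columns were matched to samples by title. Wells above Ct 35, or that never crossed, were given a Ct of 35, and from each Ct was taken the mean of 5 SNORD wells and RNU6. Subtracting the normalized Ct of the test array from that of its reference gave the log2 fold change. A value with 1 well at the cap is a bound and with both wells at the cap is no value, although shares over all 372 assays and medians of lists include such wells at 35. At least 3 fold was counted as past the threshold, and no test was made.

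The members and lists were chosen with earlier results of these data known. The named miRNAs are all assays of miR-143 and miR-145, the 3 most correlated miRNAs of each, and list members past 3 fold in 6 or more of the 12 comparisons given. Others, such as the ends of a list's range, were named after their values were seen. Assays were matched to RefSeq by name (330 of 372). The calculation was tested on simulated data. Alternatives were other normalizers (global mean of miRNAs, RNU6, SNORD wells, reverse transcription control wells), a Ct cap of 32, a threshold of 2 fold and wells under the cap only. A cap of 40 was added after seeing the data. Python 3.11.15, NumPy 2.4.6, pandas 2.3.3 and Matplotlib 3.10.9 were used.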

Additional observations from a re-analysis of the deposited data

Results flagged for a closer look

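With the EIF2C2 shRNA, the log2 fold change of miR-145-3p against control had opposite signs in the 2 cell lines, at 0.94 in My5/LV cells and at most -1.22 in My5/CRBN cells. The My5/LV wells themselves read nearly alike, at Ct 34.7 and 34.6, and the My5/LV value was -0.04 when normalized to RNU6 only and 1.81 when normalized to the global mean, so the opposite signs are not seen with RNU6. In size, the value of 0.94 and the bound of -1.22 are below the 1.43 cycles (root mean square) by which cel-miR-39-3p wells on 1 array differed at similar Ct. Each rests on 1 array per condition, and the difference between the lines was not tested.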

How the results depend on the processing

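Of the 21 member values past 3 fold over all comparisons, 19 passed with the global mean, 19 with RNU6 alone, 21 with the 5 SNORD wells and 20 with the reverse transcription control wells, all in the same direction. Lost with the global mean were miR-143-5p in My5/CRBN against My5/LV with EIF2C2 cDNA and miR-143-3p in My5/LV EIF2C2 against sh72. These normalizers moved the median of all assays by up to 1.06 on the log2 scale in a comparison. Between the lines, miR-143-3p passed 3 fold with all 6 treatments under each normalizer and cap, with the lowest value at 2.05. With sh72 against control, 0 values passed, but 1 (higher) with the global mean, 2 (lower) with RNU6, 1 (lower) with the reverse transcription control wells, 3 at 2 fold and 1 with a cap of 40. With lenalidomide against control, 5 became 2 with a cap of 32 and 9 at 2 fold. With EIF2C2 cDNA against control, 0 became 1 at 2 fold and 1 with a cap of 40. With EIF2C2 cDNA and lenalidomide, 2 became 3 with the global mean and 3 with the reverse transcription control wells, stayed at 2 with RNU6 but with 1 of them lower, and became 1 with a cap of 32, 1 with wells under the cap only, 5 at 2 fold and 4 with a cap of 40. The median r of 0.22 became 0.34 over the 8 arrays with miR-145-3p under the cap. The mean strand difference of miR-145 became 3.19 cycles with a cap of 32. With that cap, miR-145-3p in My5/CRBN EIF2C2+Len72 against EIF2C2 was at least -0.98 in place of at least 2.02, since a lower cap loosens the bound. No paired analysis was possible because each condition has 1 array and the labels give no replicate numbers to pair by. The lines are paired by treatment, as 6 differences with no test, since treatments are not replicates. The cluster was also picked on the My5/CRBN arrays of 3 of these pairs.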
